A study of Sus scrofa with 12 samples.

Results

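The 4 arrays described here set blood mononuclear cells of boars typed for SLA-DRB1 allele 050502 directly against those of boars typed for allele 070701. They are 4 of the 12 arrays of the series and were chosen by their titles, not by any measured value. Yorkshire boars of 3 SLA-DRB1 genotypes, 2 boars each, were compared around a loop. The genotypes were 050502, 070701 and a potentially new allele, called New below. Each array held RNA of 1 boar of each of 2 genotypes. Pair A, measured on arrays A1 and A2, and pair B, on arrays B1 and B2, held different boars by the design text. A2 repeated A1, and B2 repeated B1, with the dyes exchanged, so the 4 arrays stand for 2 independent comparisons. The 050502 RNA was in the red channel on A1 and B2 and in the green channel on A2 and B1. All boars were untreated as far as the labels state, and their cells came from venous blood by density gradient with no culture or stimulation. RNA went through a round of amplification before labelling. The labels give 1 allele per group and not whether a boar carried it on both chromosomes. Neither the boars' ages nor their genotypes at other SLA loci are stated in the labels.

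SLA is the pig's major histocompatibility complex. DRB1 encodes the beta chain of the DR class II molecule, and DR and DQ molecules carry peptides to the surface of antigen-presenting cells, where CD4 T cells read them. DM is a class II relative that stays inside the cell and loads peptides onto DR and DQ. Class II genes are expressed in B cells, monocytes and dendritic cells, and in pigs also in many resting T cells. DRB1 and the DQ genes lie close together, so boars that differ in DRB1 often differ in neighbouring class II genes too.

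Ratios below are log2 values of 050502 over 070701 after loess normalization within each array. A ratio of 1 is a doubling in 050502 and a ratio of -1 a halving. SD is the spread between pairs A and B (n = 2). The array carried 188 gene probes, and 185 passed the filter on dim probes. On the 4 arrays the median spot intensity was 785 to 1417.5 in red and 965.5 to 1354.5 in green, against backgrounds of 98 to 218 and 113 to 158. Intensities of single spots varied most on B1, where the median SD of the ratio over the spots of a probe was 0.28, and least on A2, at 0.11. After turning by the dye labels, ratios of A1 and A2 correlated across probes with r = 0.66 and those of B1 and B2 with r = 0.85. Of the 185 probes, 51 (27.6%) were brighter than both negative-control DNAs, VapA and the plasmid pACYC177, which have no counterpart in pig cells. The controls' own mean ratios were -0.08 and -0.003. Markers of mononuclear cells were above background in both channels of all 4 arrays, among them CD14 of monocytes and TCRa and TCRb of T cells, although CD14, unlike the others, was not brighter than both negative-control DNAs. Lactoferrin, a neutrophil granule protein, was above background in 1 of 4 channels of 050502 and 0 of 4 of 070701 and was not tested.

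A pair of class II probes, of the 4 on the array, read higher in 050502 than in 070701 boars. MHC-DQ (probe AP2) was 2.46-fold higher and MHC-DY (AP5) 2.18-fold. DY is a class II molecule described in ruminants. With limma, 2 of 185 probes (1.08%) passed at an adjusted p under 0.05, and both were class II. MHC-DM (AP1) and MHC-DR (AP3) did not pass. At an unadjusted p under 0.05 there were 15 of 185 probes (8.11%), 3 of them class II.

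For MHC-DQ, intensities above background in the 050502 channel were 19140 on A1, 11588 on A2, 32564 on B1 and 7693 on B2. In the 070701 channel of the same arrays they were 7849.8, 7414, 7036 and 3816.5. Before normalization the 050502 channel was the brighter on each array, in both dye orientations, although the ranges over arrays overlapped slightly. On B1 the 050502 channel also read higher for the class I probe MHC-I, at 21603 against 14614. The normalized ratio of MHC-I there was -0.12. Normalized ratios of MHC-DQ were 1.40, 1.13, 1.55 and 1.12, and the mean was 1.30 (SD 0.05, 95% interval 1.06 to 1.54, limma adjusted p = 0.00639). The averages of pairs A and B were 1.26 and 1.33, closer together than the single arrays, which still hold dye differences.

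For MHC-DY the 050502 channel read 12824, 16526, 15542 and 22698 on A1, A2, B1 and B2. The 070701 channel read 7414, 10523, 3524 and 11858. For MHC-DY too, the 050502 channel was the brighter on each array before normalization. Its normalized ratios were 0.85, 1.17, 1.43 and 1.05, with a mean of 1.12 (SD 0.16, interval 0.89 to 1.35, limma adjusted p = 0.00639). Neither MHC-DQ nor MHC-DY passed when pair A or pair B was left out (limma adjusted p = 0.0748 and 0.117 for both probes), or with the deposited ratios after centring (0.0746 and 0.174). In these bulk samples, more cells of a class II-bearing type and more class II RNA per cell cannot be told apart. Whether the class II alleles of the 2 genotypes bind these probes equally was not tested.

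The genotypes were defined at the DR beta chain, but the array name MHC-DR does not say which DR chain its probe reads. The MHC-DR probe had nearly equal ratios near 0 in both pairs. The 050502 channel read 10892, 9669, 14985 and 13425, and the 070701 channel 10783, 12948, 9084 and 13530. Normalized ratios were 0.05, 0.05, 0.01 and 0.08, with a mean of 0.04 (SD 0.003, interval -0.15 to 0.24, limma adjusted p = 0.81). The sign of that mean changed when arrays were centred on their medians or when the deposited ratios were used. The upper bound of that interval lies below the lower bounds for MHC-DQ and MHC-DY.

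MHC-DM lay between them, at 0.78, 0.58, 0.27 and 0.15 on the 4 arrays. The mean was 0.44 (SD 0.33, interval 0.11 to 0.78, limma adjusted p = 0.44), and pair A accounted for more of it than pair B. Over the 4 class II probes the median ratio was 0.78, against -0.004 over the 185 probes tested. All 4 had positive ratios on each of the 4 arrays, where 17.3% of all probes did, and 33.5% of all probes were positive in both pairs. With median centring 3 of the 4 means were positive. Cross-hybridisation between class II probes was not tested.

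**Figure D1:**
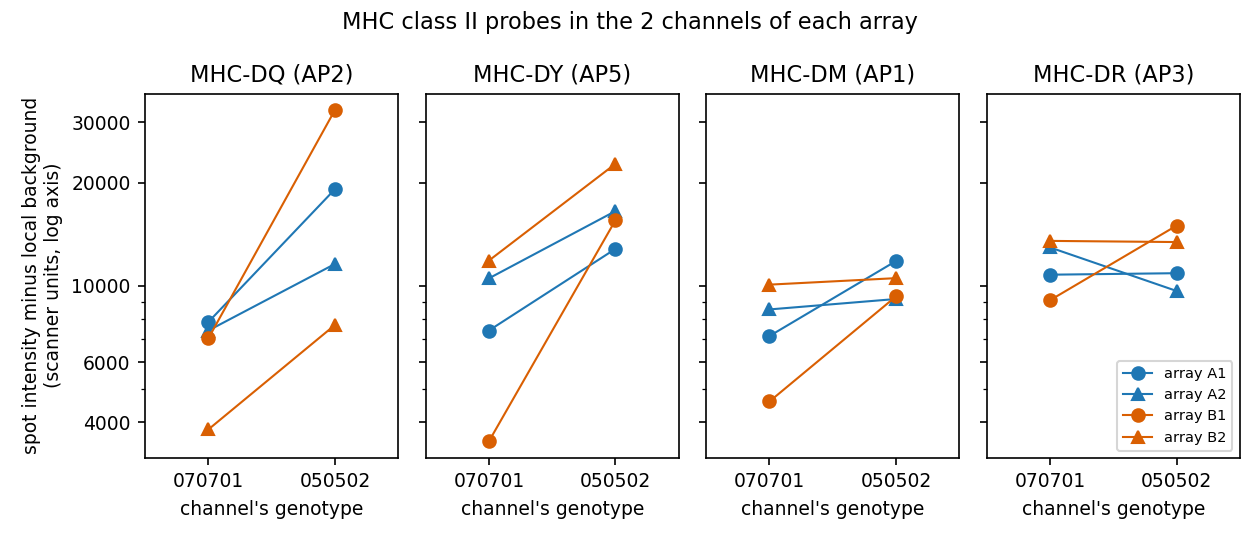
Spot intensity above local background (scanner units, log axis, not normalized) of the 4 MHC class II probes, with a line joining the 070701 and 050502 channels of each array. The lines of MHC-DQ and MHC-DY climb on each array in both pairs. Those of MHC-DR climb on B1, fall on A2 and run nearly level on A1 and B2. Levels of different probes are not comparable.

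The 3 probes with the largest ratios towards 050502 were IL1b, MPIb and IL8, and none of them passed the test. IL1b, a fever-inducing cytokine released by monocytes, led the array. Its 050502 channel read 2186, 6248, 4076 and 11763 and its 070701 channel 1085.5, 2469, 618.5 and 2889. Before normalization the 050502 signal was above that of 070701 on each array, and the normalized ratios were 1.29, 1.88, 2.15 and 2.18. The mean of 1.88 is a 3.67-fold difference (SD 0.41, interval -0.75 to 4.50, limma adjusted p = 0.66). The fit shares its spread with the pairs of 050502 and New, in which IL1b stood at -1.85 in one and 2.56 in the other. Without those arrays, a fit added once the values were known, IL1b passed (limma adjusted p = 0.0276).

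Other cytokines of the IL-1 family stood on the same side. IL1a, which signals through the IL1b receptor, had ratios of 0.60, 0.88, 1.21 and 1.02 (mean 0.93, SD 0.27). IL18, which drives interferon gamma production, had 0.29, 0.76, 1.43 and 1.07 (mean 0.89, SD 0.51, limma adjusted p = 0.51). In both of them the arrays of pair B were higher than those of pair A, and neither IL1a nor IL18 was brighter than both negative controls. The antagonist of the family, IL1antag, did not share the direction, with a mean of -0.09 (SD 0.04).

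Casp1, the protease that cuts the IL-1b and IL-18 precursors into their active forms, went the other way. Its ratios were -0.64, -0.20, -1.08 and -1.51 (mean -0.86, SD 0.61, interval -1.42 to -0.29, limma adjusted p = 0.43). That was the lowest mean of all 185 probes, 1.81-fold towards 070701. Nalp3, the sensor that assembles Casp1 into the inflammasome, was on the opposite side at 0.33, 0.36, 1.55 and 1.03 (mean 0.82, SD 0.67). Casp13A had a mean of -0.04. Of the 7 probes of the IL-1 family and caspases, 3 had positive means and 0 passed in limma, with 1 in each direction at an unadjusted p under 0.05.

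Among inflammatory chemokines, which draw leukocytes into tissue, 3 of 8 probes had large ratios and the others stood near 0. MPIb and MP1a are counted here by their place among the array's chemokine identifiers, and their genes were not resolved. The probe printed as MPIb had ratios of 0.96, 1.09, 1.72 and 2.03 (mean 1.45, SD 0.60). IL8, the main attractant of neutrophils, had 0.48, 0.91, 1.45 and 2.50 (mean 1.33, SD 0.91), and the probe printed as MP1a had 0.85, 0.69, 1.40 and 1.41 (mean 1.09, SD 0.45). These 3 were positive on each array and larger in pair B than in pair A. Their limma adjusted p lay between 0.64 and 0.66. MCP-1, the classical attractant of monocytes, had a mean of -0.22 and RANTES, made by T cells, 0.10, so the chemokine list had a median of only 0.08. Of the 3 large probes only MPIb was brighter than both negative controls.

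**Figure D2:**
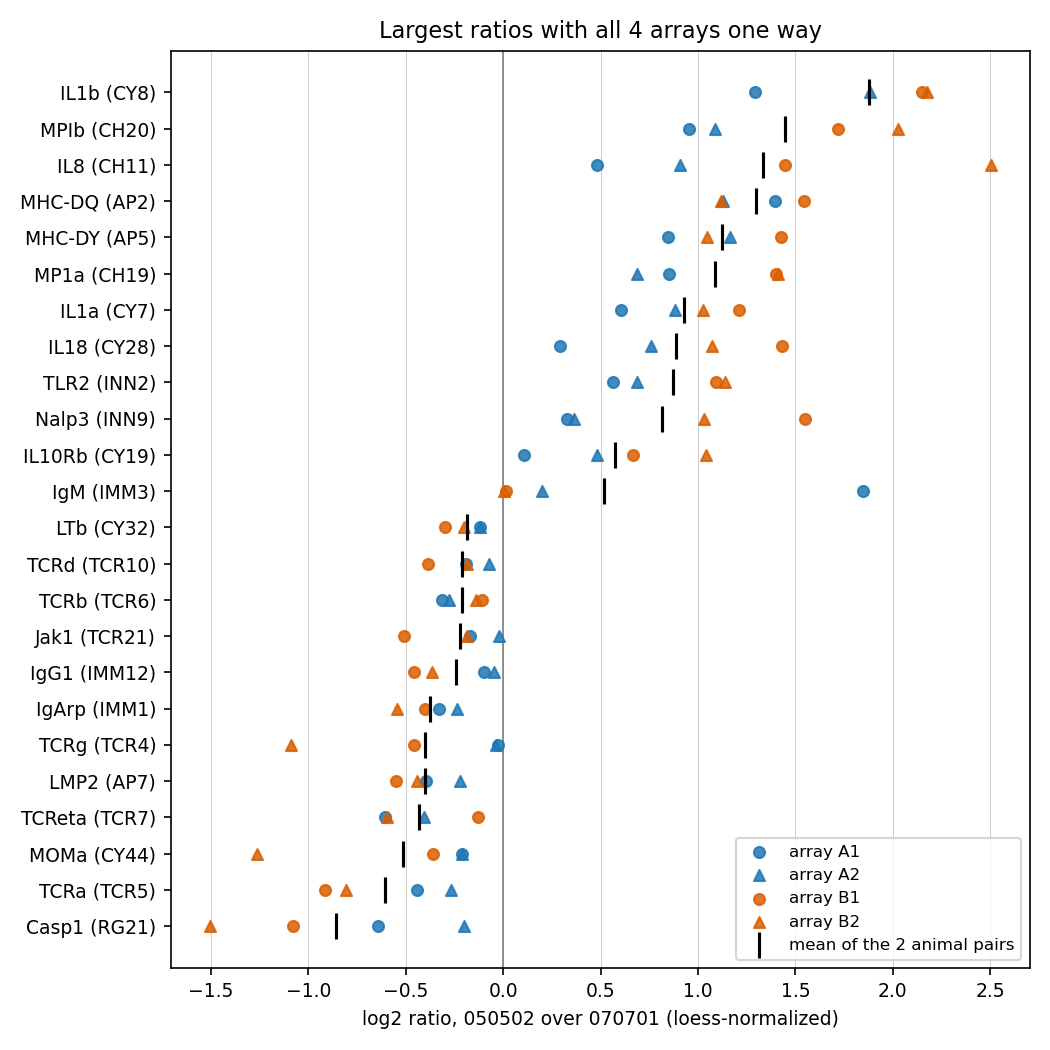
Log2 ratios of 050502 over 070701 on each of the 4 arrays for the probes with the largest means towards each genotype among those with all 4 arrays on one side; bars mark the mean of pairs A and B. Most inflammatory probes lie further right in pair B than in pair A, while MHC-DQ and MHC-DY overlap between pairs, and the value of IgM rests on array A1.

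Receptors that sense bacteria and the NF-kB factors below them leaned to 050502. Of 12 probes, 11 had positive means against 48.1% of all probes, and 7 were positive on each of the 4 arrays, against 17.3%. The list's median was 0.13. Only 3 of the 12 were brighter than both negative controls, namely TLR2, Nalp3 and NFKB1 under its identifier TCR27. TLR2, the receptor for bacterial lipoproteins, had ratios of 0.57, 0.69, 1.10 and 1.14 (mean 0.87, SD 0.35, limma adjusted p = 0.70). CD14, which hands lipopolysaccharide to TLR4, had 0.27, 0.25, 0.08 and 0.44 (mean 0.26), and TLR4 itself a mean of 0.24 (SD 0.14). The direction was shared, and TLR2 and Nalp3 had by far the largest ratios of the list. The intracellular sensors NOD1 and NOD2 had means of 0.09 and 0.12. NFKB1 was printed under 2 identifiers, with means of 0.20 (TCR27) and 0.14 (RG1), and RelB stood at 0.11. In limma 0 of the 12 passed, with 1 at an unadjusted p under 0.05.

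Class I antigen presentation probes mostly lay near 0. MHC-I itself, which displays peptides to CD8 T cells, had ratios of -0.002, -0.05, -0.12 and -0.01 (mean -0.05, SD 0.03). The transporters that bring peptides into the endoplasmic reticulum stood at -0.09 (TAP1, SD 0.13) and 0.14 (TAP2, SD 0.12), and the chaperone CALR at -0.08. Those 4 probes therefore lay close to 0. LMP2, an immunoproteasome subunit that interferon gamma induces, was lower on each array at -0.40, -0.22, -0.55 and -0.44 (mean -0.40, SD 0.13, limma adjusted p = 0.51). A second subunit, LMP7, had 0.04 and -0.08 in pair A but -1.54 and -1.16 in pair B (mean -0.69, SD 0.94), so its mean came from pair B. The third, LMP10, stood at -0.001 and changed sign without background correction. Of 7 probes, 6 had negative means, LMP10 among them, where 96 of all 185 did. On each array 2 were negative, where 11.9% of all probes were. In limma 0 passed, with 1 at an unadjusted p under 0.05.

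CD1a,b,d, which present lipids to T cells, had ratios of 0.52, 0.58, 0.23 and 0.26 (mean 0.40, SD 0.21, interval 0.16 to 0.64, limma adjusted p = 0.39). All 4 arrays were positive, as they were for MHC-DM, and both probes had larger ratios on A1 and A2. The costimulatory molecules CD80 and CD86, which an antigen-presenting cell shows to T cells, stood at 0.06 and -0.07. CD40 stood at 0.12 and its ligand CD40L at -0.07. CD28, the T cell receptor of CD80, and the inhibitory CTLA4 lay between -0.15 and -0.01. Outside CD1 the list thus stayed near 0, and CD86 and CD40L changed sign with the deposited ratios, CD86 also with median centring.

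T cell probes leaned towards 070701. Of 14 probes, 13 had negative means, where 96 of all 185 did. On each of the 4 arrays 8 were negative, where 11.9% of all probes were. CD28 is counted under both of its identifiers, AP11 (mean -0.07) and RG12 (-0.15). The list's median was -0.15. TCRa, the alpha chain of the T cell receptor, had ratios of -0.44, -0.27, -0.92 and -0.81 (mean -0.61, SD 0.36, interval -1.04 to -0.18, limma adjusted p = 0.44). Its partner TCRb had -0.31, -0.28, -0.11 and -0.14 (mean -0.21, SD 0.12). Both were on the same side on each array, but TCRa was lower on the arrays of pair B and TCRb on those of pair A.

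The receptor chains of gamma-delta T cells, which are abundant in pig blood, also had negative means. TCRg stood at -0.02, -0.04, -0.46 and -1.09 (mean -0.40, SD 0.53) and TCRd at -0.19, -0.07, -0.39 and -0.18 (mean -0.21, SD 0.11). WC1.1, a scavenger receptor of gamma-delta T cells, had -0.57, -0.48, 0.02 and -0.36 (mean -0.35, SD 0.25). TCRg therefore rested on pair B, and WC1.1 was more negative in pair A. TCReta, named after a signalling chain of the receptor complex, had -0.61, -0.41, -0.13 and -0.60 (mean -0.43, SD 0.10, limma adjusted p = 0.51). The signalling chains CD3d and CD3g, shared by all T cells, stood at -0.14 and -0.12, and the co-receptor CD4 at -0.10. CD5 was the exception, with a mean of 0.08. In limma 0 of the 14 probes passed, with 3 at an unadjusted p under 0.05, and 4 of the 14 were brighter than both negative controls.

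Of the probes of monocytes and dendritic cells, cytotoxic cells and granulocytes 0 passed in limma, with 1, Granzyme, at an unadjusted p under 0.05. Of 6 probes of monocytes and dendritic cells, 5 had positive means, against 48.1% of all probes, and 2 were brighter than both negative controls. Their median was 0.23, or 0.09 for pair A and 0.30 for pair B alone. TLR2, TLR4 and CD14 belong to this list and were already counted among the bacterial sensors above. FcRgIII, an IgG receptor, stood at 0.22, and Myd-1, a surface protein of myeloid cells, at -0.000275. Granzyme, a protease of cytotoxic granules, had 0.40, 0.07, 0.49 and 0.43 (mean 0.35, SD 0.16, limma adjusted p = 0.44). Of the other cytotoxic marker, FasL, the mean was 0.03. IL8R, a chemokine receptor of neutrophils, had -0.03 and 0.13 in pair A and 1.08 and 0.91 in pair B. The part of cell-type makeup in the class II and inflammatory results was not tested.

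Immunoglobulin probes of B cells did not move together. IgG2a had 0.07 and -0.09 in pair A and -1.05 and -0.47 in pair B (mean -0.38, SD 0.53), and IgG1 a mean of -0.24 (SD 0.24). IgJ, which joins antibody polymers, stood at -0.09 (SD 0.29), and CD72, a B cell surface protein, at 0.08. IgM was above background in only 2 of the 4 channels of 070701. Its ratios were 1.85, 0.20, 0.02 and 0.01, of which only that of A1 was large. IgA did not pass the filter. IgArp, an array name whose gene was not resolved here, was negative on each array, at -0.33, -0.24, -0.40 and -0.54 (mean -0.38, SD 0.14, limma adjusted p = 0.66). Of the 5 probes tested 3 had negative means, with a median of -0.09. FcRN, which protects IgG from breakdown, had -0.37, 0.07, -0.07 and -0.44 (mean -0.20, SD 0.08, limma adjusted p = 0.54).

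**Figure D3:**
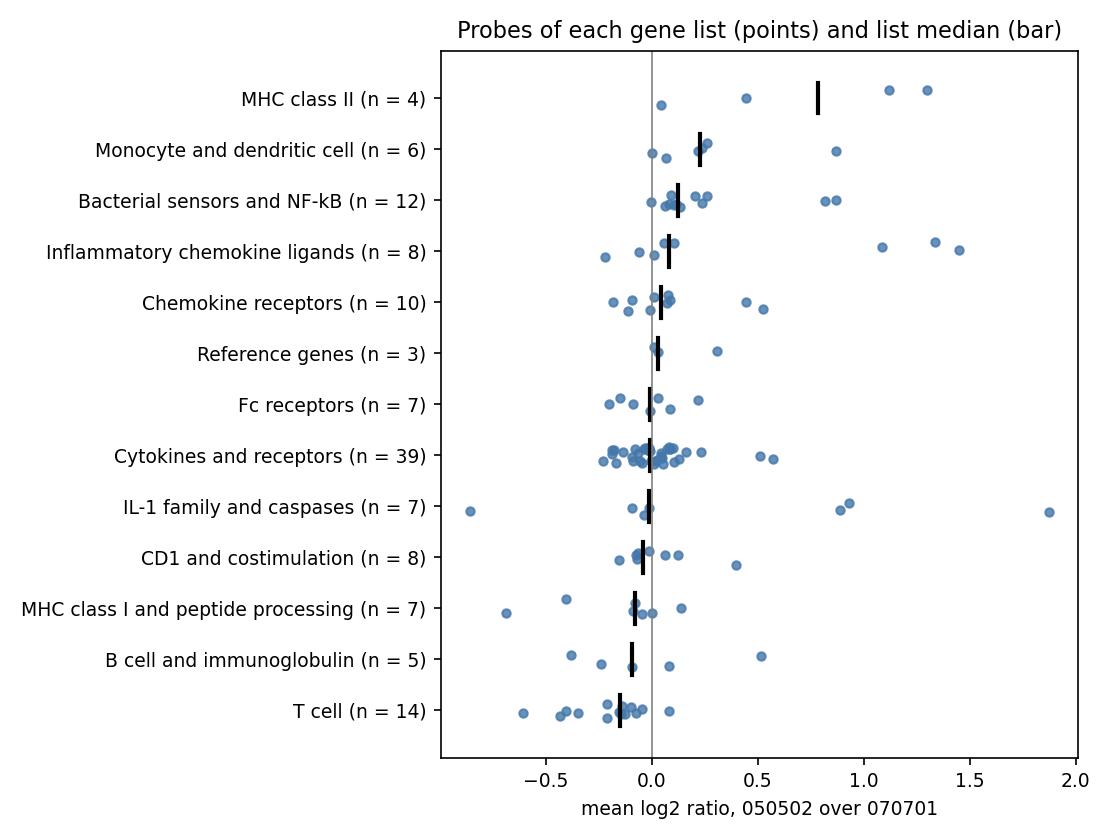
Mean log2 ratio of 050502 over 070701 of each tested probe (points; vertical scatter within a row is only for legibility) in the gene lists with 3 or more tested probes, with the list median as a bar. MHC class II has the highest median at 0.78 and T cell the lowest at -0.15, and the IL-1 list spreads widest, from -0.86 to 1.88.

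The remaining cytokines and their receptors stayed close to 0. Of 39 probes, 18 had positive means, a share near the 48.1% over all probes, and the median was -0.01. IL10, which restrains inflammation, had ratios of 0.66, 0.22, 0.80 and 0.36 (mean 0.51, SD 0.10, limma adjusted p = 0.64). IL10Rb, a chain of its receptor, had 0.11, 0.48, 0.67 and 1.04 (mean 0.57, SD 0.40). These were the 2 highest of the 39, and neither was brighter than both negative controls. LTb, a cytokine of lymphoid tissue, was lower on each array, with a mean of -0.19 (SD 0.09). In limma 0 of the 39 probes passed, and 0 had an unadjusted p under 0.05.

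Of the reference genes, GAPDH and HPRT stood at 0.01 and 0.03, and both changed sign with median centring. ACTB, beta actin, had 1.13 and 0.91 in pair A but -0.54 and -0.27 in pair B (mean 0.31, SD 1.01). The arrays within each pair agreed in sign, and the pairs opposed each other.

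ACTB was 1 of several probes that set the 2 animal pairs apart. CXCR4, the receptor for the chemokine SDF-1 that keeps leukocytes in bone marrow, differed most between pairs, at -0.94 and -0.46 in pair A and 1.87 and 1.31 in pair B. In scanner units its 050502 channel read 9979.5 and 8345 in pair A against 41641 and 26186 in pair B, whereas its 070701 channel read 19630 and 15756 against 7117 and 11383. CXCR4, chosen after its values were seen, thus had opposite directions in the 2 pairs while dye-exchanged arrays agreed. LMP7 and Nalp3 were near 0 or small in pair A and beyond 1 in pair B. STAT4, a transcription factor of interleukin-12 signalling and also chosen after its values were seen, had -0.34 and 0.09 in pair A and 1.04 and 0.40 in pair B.

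Over all probes the pairs differed by a median of 0.13, and arrays of a dye exchange by 0.16 in each pair. Ratios spread more widely in pair B (SD over probes 0.46) than in pair A (0.29). With 1 value per pair, the difference between pairs has no test. Pairs A and B were scanned on different days, so the boars of a pair and the scan day cannot be told apart. Scanner gain in red was 870 and 855 for pair A and 730 and 740 for pair B. Over the 185 probes, 54 (29.2%) had all 4 arrays on one side, 32 (17.3%) towards 050502 and 22 (11.9%) towards 070701.

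**Figure D4:**
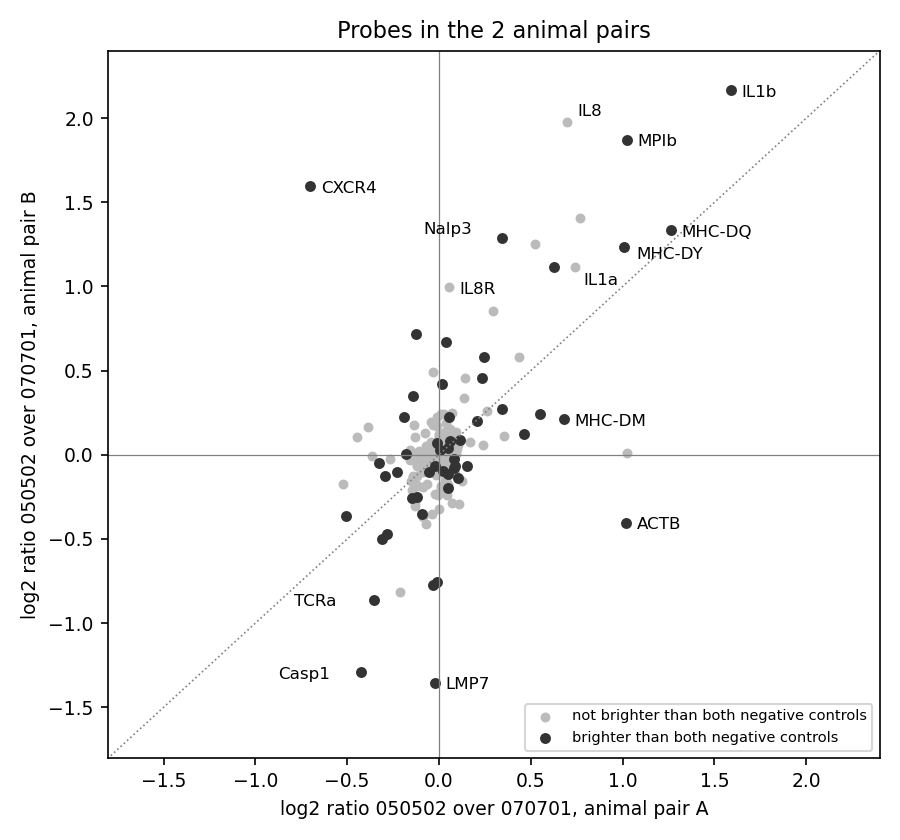
Log2 ratio of 050502 over 070701 in animal pair A (x axis) and pair B (y axis) for the 185 tested probes, dark where brighter than both negative-control DNAs; the dotted line marks equal values. MHC-DQ lies near the line, most inflammatory probes lie above it, and CXCR4 and ACTB lie in the quadrants where the pairs oppose.

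The same boars were also hybridised with boars of the New genotype, which gives a path from 050502 to 070701 that does not use the 4 arrays. The comparisons share boars, so they are given side by side. The 2 hybridised pairs of 050502 and New opposed each other across probes (r = -0.54), and within the dye exchange of pair A the arrays correlated with r = 0.19 only. Whether that pair is labelled in the right direction was not tested, and path values are also given with its sign turned. As labelled, all 4 class II probes were negative in both pairs of 050502 over New. MHC-DQ had -0.24 and -0.46 and MHC-DY -0.06 and -0.10. Turning pair A sets these probes in opposite directions in the 2 pairs. MHC-DQ stood at -0.35 for 050502 over New and -1.37 for 070701 over New, a path value of 1.02 beside the direct 1.30 (direct minus path 0.28, limma adjusted p = 0.97). MHC-DY stood at -0.08 for 050502 over New and -1.02 for 070701 over New, a path value of 0.94 beside 1.12. As labelled, MHC-DQ and MHC-DY thus read lowest in 070701, and 050502 was not above New. MHC-DM had a path value of 0.35 beside 0.44. For MHC-DR the path gave 0.003 beside 0.04. With pair A of 050502 and New turned, the path values were 1.26, 1.00, 0.49 and 0.21. The class II probes were thus in the same order on both routes, turned or not.

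IL1b had a path value of 0.19 beside the direct 1.88, TLR2 -0.50 beside 0.87 and MPIb 0.13 beside 1.45. The differences between routes were 1.68, 1.37 and 1.32 and did not pass (limma adjusted p = 0.97 for each). In these probes the 2 pairs of 050502 and New had opposite signs, as in TLR2 with -1.54 and 1.32, so the path averages values that disagree. With pair A turned, the path values became 2.04 for IL1b, 1.04 for TLR2 and 1.31 for MPIb, and the differences from the direct values -0.16, -0.17 and 0.14. The agreement of the 2 routes for these probes thus rests on the sign of 1 hybridised pair. Casp1 was on the side of 070701 by both routes, at -0.86 directly and -1.47 by the path, or -0.90 with that pair turned. TCRa stood at -0.61 directly and -0.34 by the path, and LMP7 at -0.69 and -0.65. TCRb and MHC-I had opposite signs on the 2 routes, at -0.21 and 0.39 and at -0.05 and 0.27, and their paths became -0.27 and -0.09 with that pair turned. In limma 0 of 185 probes passed for a difference between routes, with 2 (1.08%) at an unadjusted p under 0.05. Those 2 were IFNg, with a direct ratio of -0.02, and probe CY22 for a subunit of interleukin-12, with -0.08. With 3 residual degrees of freedom and boars shared between the routes, this test cannot show that the routes agree.

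**Figure D5:**
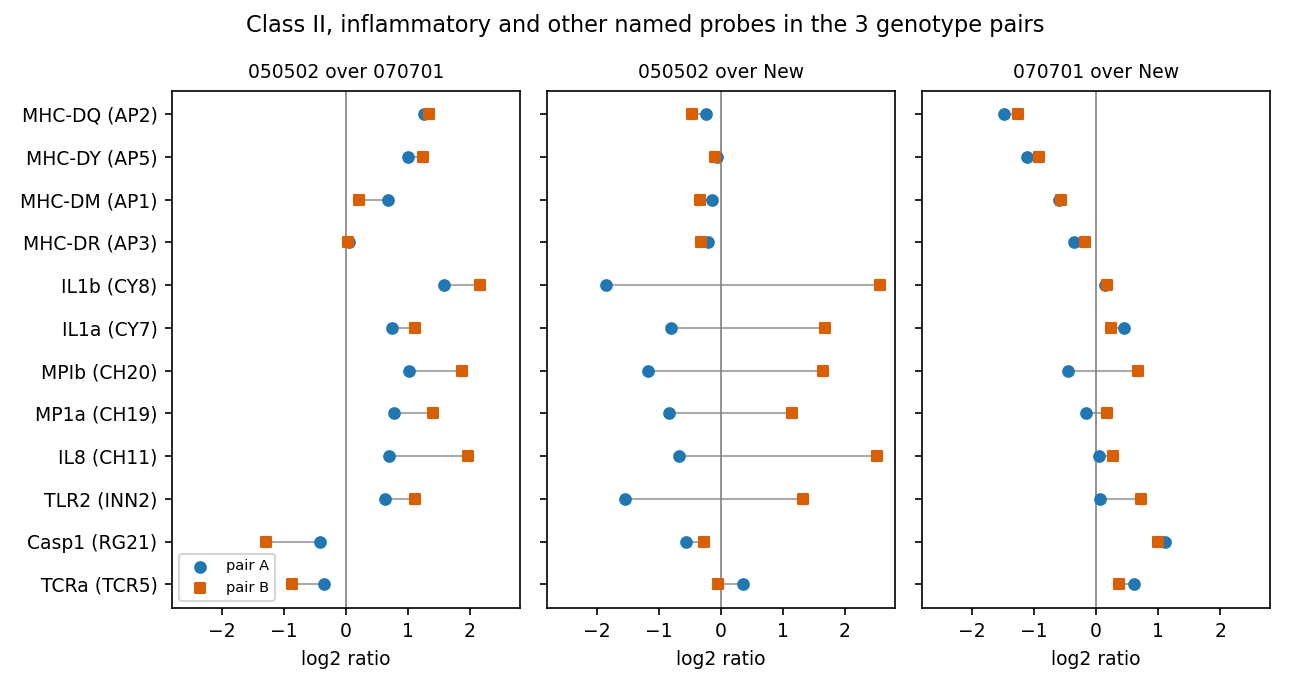
Log2 ratios in hybridised pairs A (circles) and B (squares) for 12 probes in each of the 3 genotype pairs, with a line joining the 2 values. The 2 values of MHC-DQ, MHC-DY and MHC-DR lie close together within each genotype pair. MHC-DM lies at 0.68 and 0.21 for 050502 over 070701. IL1b, MPIb and TLR2 are positive in both pairs of 050502 over 070701 and split across 0 for 050502 over New.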

How the data were processed

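Intensity values are GenePix Pro 6.0.1.25 medians per spot at 635 and 532 nm, deposited without normalization per the file headers. The percent of saturated pixels, also deposited, reached at most 37 percent in a spot of these arrays. The authors' deposited log2 ratios matched the scanner medians, uncentred and unturned. Turned and centred on each array's median, they served as an alternative. Foreground medians were corrected by normexp (offset 50) and global loess in limma 3.58.1 (R 4.3.3), leaving out controls and spots not found. Spots of an identifier were averaged, ratios turned by the channel labels and each dye exchange averaged. A probe counted as detected where at least 0.5 of its spots exceeded background by 2 background SD, and was tested if detected in a channel on 6 of 12 arrays. The fit (lmFit, eBayes) held 6 averaged ratios with a mean for each genotype pair, which left 3 residual degrees of freedom. P-values are two-sided, adjusted by Benjamini-Hochberg over 185 probes. They measure the spread between hybridised pairs, so few arrays limit precision. The fit treats the 6 averaged ratios as independent, although the genotype pairs share boars. The procedure was also run on simulated data with independent errors. Those data held no shared boars or opposed pairs, so that run does not bear on the class II calls.

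The members and gene lists were chosen with earlier results of these data known. Named were passing probes, the 12 largest means per direction with 4 arrays one way, all probes of the class II, class I, CD1, IL-1 and reference lists, and 4 of each other list by p. Probe names are the array's own, and probe sequences were not used here.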

Additional observations from a re-analysis of the deposited data

Results flagged for a closer look

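In 3 of the 67 named probes, 1 of the 4 arrays lay far from the other 3, by the gap to the nearest array as a share of the whole range, beyond Dixon's 95% critical value. Chance gives this in about 1 of 20 groups, and arrays of a dye exchange share their RNA. For IgM the share was 0.894, with A1 at 1.85 and the others between 0.01 and 0.20. For MOMa, an array name whose gene was not resolved here, it was 0.858, with B2 at -1.26 and the others between -0.36 and -0.21. For CD40 it was 0.852, with B2 at -0.02 and the others between 0.15 and 0.18.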

How the results depend on the processing

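With 2 boars per genotype, both class II calls rest on the spread borrowed from the other genotype pairs. Leaving out pair A or pair B gave 0 passing probes each time in limma (14 and 9 at an unadjusted p under 0.05), with MHC-DQ at 1.26 to 1.33 and MHC-DY at 1.01 to 1.24. A fit of the 2 ratios of 050502 and 070701 alone also gave 0 (16 at an unadjusted p under 0.05), at 1.30 and 1.12. The deposited ratios, centred on each array's median, gave 0 (13 unadjusted), at 1.19 and 1.02. Median centring left 1 probe, MHC-DQ, with MHC-DY at 1.06. The first array of each dye exchange left 1, MHC-DQ, with MHC-DY at 1.14, and the second left 1, MHC-DY, with MHC-DQ at 1.12. Turning pair A of 050502 and New gave 4 (also IL1b and IL10). Single arrays with a dye term gave 4 (also IL1b and IL1a), and all single arrays with scan day, or with the hybridised pair, as a random block gave 6 (also CD1a,b,d, Casp1, TCRa and MHC-DM). The dye-term fit counts arrays of a dye exchange as replicates. The scan-day and pair fits do so with correlations of 0.16 and 0.15. Both calls held under the other settings tried: block loess, no background correction, offset 10, spot medians, the 3 other probe filters, the loop fit, and the fit without 050502 and New, which added IL1b. The fits without 050502 and New, with the dye term and with the pair block were chosen after the data were seen. The planned fit of these 4 arrays alone with a dye term and a pair block could not be fitted, since limma returned no correlation. No paired analysis was possible because both genotypes already share each array, and the labels do not say which pairs of different comparisons share a boar. Apart from these, causes were not tested.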

Other observations

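Some probes outside the lists above were chosen after their values were seen. SOD, named after the enzyme that disarms superoxide, had ratios of 0.18, 0.50, 0.63 and -0.08 (mean 0.31, SD 0.05, limma adjusted p = 0.39). Its pair averages, in which dye differences cancel, lay closer together than its single arrays. Bcl-2, which protects lymphocytes from death, was positive on each array, at 0.29, 0.20, 0.54 and 0.61 (mean 0.41, SD 0.24, limma adjusted p = 0.64). The other probes of the Fas and apoptosis list lay between -0.02 and 0.03.

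Among kinases and factors of cytokine signalling, Jak1 was negative on each array (mean -0.22, SD 0.18), as was IRF1 (-0.12), which carries interferon signals. JunB, a subunit of the AP-1 factor, stood at 0.30 (SD 0.22, limma adjusted p = 0.51). The 13 probes of that list had a median of -0.01. Hormones and their receptors ranged from -0.20 to 0.10 over 17 probes with 0 on one side in all 4 arrays.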
